A study of Mus musculus with 25 samples.

Results

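The genes of fatty acid oxidation and ketogenesis were taken as 38 members listed by symbol, and all 38 were found among the 18668 genes of the hepatocyte count table. The members cover fatty acid uptake and activation (4 genes), the carnitine shuttle (5), mitochondrial beta-oxidation (12), the electron transfer flavoprotein (3), peroxisomal beta-oxidation (6), acyl-CoA thioesterases (5), ketone body handling (1) and fasting signals (2). Only Bdh1 is a ketone body enzyme, so the name describes fatty acid oxidation more than ketogenesis. RNA was sequenced in bulk from sorted mouse liver cells, in 13 hepatocyte libraries of 5 groups and in 12 immune cell libraries of 6 groups. The IL6_STAT3KO hepatocytes (n = 3) came from Stat3_floxed mice that had carried AAV-TBG-Cre for 2 weeks and an IL6 plasmid, given by hydrodynamic tail vein injection, for 1 week. The TBG promoter of that virus limits Cre recombinase to hepatocytes, so other liver cells keep Stat3. The IL6 hepatocytes (n = 3) came from wild-type mice given the IL6 plasmid 1 week earlier and no AAV. The DDC_STAT3KO hepatocytes (n = 3) came from Stat3_floxed mice that had AAV-TBG-Cre for 2 weeks and DDC diet, a feed that injures the bile ducts, for 1 week. The DDC hepatocytes (n = 2) came from Stat3_floxed mice with AAV-TBG-GFP for 2 weeks and the diet for 1 week. The GFP hepatocytes (n = 2) came from wild-type mice 1 week after injection of a GFP plasmid. All mice were of the strain given as C57BL/6J 129SV, and their age is not stated. IL6_STAT3KO and IL6 therefore differ in genotype and AAV as well as in STAT3, and DDC and GFP differ in diet, genotype, AAV and injection, and these differences cannot be told apart from the labelled one. The labels do not say that replicates were separate mice, so p-values reflect library-to-library spread that may be technical only.

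Fatty acids enter the hepatocyte, are bound by fatty acid binding protein and are activated to acyl-CoA on membranes. Long-chain acyl groups cross into mitochondria on carnitine and are shortened by repeated rounds of dehydrogenation, hydration, oxidation and thiolysis, while peroxisomes take the very-long-chain and dicarboxylic substrates. In fasting the liver turns much of the acetyl-CoA so made into ketone bodies, and many of these genes are textbook targets of the nuclear receptor PPAR-alpha. IL6 acts on hepatocytes through gp130 and the transcription factor STAT3, and the comparisons ask how these genes stood after the IL6 plasmid or the DDC diet, with and without hepatocyte STAT3.

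Promoter sequence was read for the members with an entry in the RefSeq promoter table of GRCm38.p6 (34 of 38), each covering 250 bases before to 50 after the start of the gene. Both strands were searched for DR1, a direct repeat of AGGTCA with 1 base between that PPAR-alpha and related receptors bind, with up to 1 mismatch, and for TTCNNNGAA, the palindrome that STAT proteins bind, with none. No member held both motifs. DR1 matched in 0.554% of 32851 promoters and in 2 members, Fabp1 (bases -67 to -55 from the start) and Acot12 (bases -110 to -98). The palindrome matched in 8.3% of promoters and in 3 members, Cpt2, Hadha and Hadhb. Hadha and Hadhb, which encode the subunits of 1 protein, lie head to head with starts 273 bases apart, and their match is the same site. These stretches are shown because Fabp1 and Acot12 were called in the IL6 comparisons under each alternative fit, while Hadhb was not called in the main fit. Without IL6 replicate 3, Hadhb and Cpt2 were called lower in IL6 than in GFP and higher in IL6_STAT3KO than in IL6. Hadha was then called lower in IL6 than in GFP. The capitals mark the matched letters. A match is a description of letters and not a bound site. The forward strand stretches are from chr6:71199729-71199826, chr13:91741371-91741470 and chr5:30155117-30155146.
Fabp1: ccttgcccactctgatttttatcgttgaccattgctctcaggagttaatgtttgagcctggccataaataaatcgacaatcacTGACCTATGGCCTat
Acot12: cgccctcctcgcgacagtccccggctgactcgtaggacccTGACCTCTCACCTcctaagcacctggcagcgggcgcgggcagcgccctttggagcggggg
Hadhb: gaaaggatgatTTCTCTGAAggtgagacta

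Library totals ranged from 13.6 to 18.4 x 1e6 counts. Stat3 had 1870, 1546 and 1984 counts in IL6_STAT3KO, against 4303, 5695 and 6795 in IL6, and 1282, 1239 and 1166 counts in DDC_STAT3KO, against 2830 and 2513 in DDC. GFP libraries held 1697 and 1437 Stat3 counts, so the IL6_STAT3KO libraries stood near the level of the plasmid controls. The deleted exons are not named, so whole-gene counts do not show the deletion itself. The hepatocyte markers were abundant in every library, with a summed level of 89650 to 152300 CPM (counts scaled to 1e6 per library) in IL6_STAT3KO, 19730 to 110700 CPM in IL6, 87250 to 110200 CPM in DDC_STAT3KO, 75270 to 88180 CPM in DDC and 86530 to 92090 CPM in GFP. IL6 replicate 3 stood apart. It held 7795 EGFP counts against 117 and 93 in the other IL6 libraries, although its label names no GFP vector. Its albumin share was 0.557%, against 6.45% and 2.99% in the others, and it had 5624 Il6 counts against 62 and 52. The IL6_STAT3KO libraries had 12, 9 and 18 Il6 counts, so these mice also differed from the IL6 mice in plasmid transcript. Mitochondrially encoded transcripts made up 4.16% to 5.92% of counts in IL6_STAT3KO, 2.05% to 2.76% in IL6, 2.03% to 5.38% in DDC_STAT3KO, 5.21% and 5.48% in DDC and 5.56% and 5.60% in GFP, and their part in the results was not tested.

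After the IL6 plasmid in wild-type mice, 15 of the 38 members were lower and 2 were higher than with the GFP plasmid. Those lowest relative to GFP were Acaa1b, Fabp1, Acsl1, Ehhadh and Decr2, and the higher ones were Fgf21 and Pdk4. The median log2 fold change of the members was -0.92, against 0.05 over the 14339 genes tested. Of all genes tested, 12.2% were called lower and 13.7% higher (edgeR quasi-likelihood F test with Benjamini-Hochberg adjustment over all genes, called at an adjusted p under 0.05). Shares over all genes are given for the main fit and for the fit without IL6 replicate 3 only. The count of members depended on single libraries. It was 8 members without GFP replicate 1, 7 without GFP replicate 2, 11 without IL6 replicate 2 and 27 without IL6 replicate 3. Acaa1b, Acot12, Acsl1, Decr2, Echs1, Etfa and Fabp1 were called lower under each of the 19 alternative fits, which include no rule on the size of the change. Cell markers moved with this comparison. Of 10 hepatocyte markers 4 were called lower, and 4 of 10 Kupffer cell and macrophage markers were called higher, with a summed level of 93.3 to 201 CPM in IL6 and 35.1 to 45.1 CPM in GFP. Cholangiocyte markers (4 of 6 in the table, Spp1 among them) summed to 2142 to 10680 CPM in IL6 and 8.88 to 15.4 CPM in GFP, where Krt7 and Epcam were at 0. The part of these shifts in the member values was not tested. In bulk RNA, fewer cells of a type and less RNA per cell cannot be told apart.

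In IL6_STAT3KO hepatocytes, 12 members were higher than in IL6 hepatocytes and 3 were lower, and the 12 were all among the 15 that were lower in IL6 than in GFP. Because these comparisons share the IL6 libraries, the overlap is given as a count only. The members not called here but lower in IL6 than in GFP were Acaa2 (0.68 ± 0.24, adjusted p = 0.0593), Etfa (0.65 ± 0.25, 0.0759) and Bdh1 (0.48 ± 0.35, 0.341), on the log2 scale with the edgeR adjusted p. The 3 lower members were Fgf21, Pdk4 and the peroxisomal isomerase Eci2. The members' median was 0.49, against 0 over all genes, of which 13% were called higher and 13.4% lower. Of the 10 hepatocyte markers 3 were called higher, and the cholangiocyte markers summed to 20.4 to 57.9 CPM in IL6_STAT3KO, with Epcam at 0, and 2142 to 10680 CPM in IL6, and their part was not tested. Acaa1b, Acadm, Acot12, Acsl1, Decr2, Echs1, Ehhadh, Fabp1 and Fgf21 were called under each of the 19 alternatives, among which is no rule on size, and Echs1 (0.95) lies under 1 on the log2 scale. Slc27a2 (1.06 ± 0.36 SE, edgeR adjusted p = 0.0458) was close to the threshold and lost its call under 11 of 19 alternatives.

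None of the 38 members was called between IL6_STAT3KO and GFP hepatocytes by edgeR, or by DESeq2. An unadjusted edgeR p under 0.05 was found for 3 members (Eci2, Etfa and Crat), compared with 2743 of the 14339 genes tested. The smallest adjusted p was 0.223. The count was 1 with a replicate block, 2 with only these groups in the fit and 3 without both IL6 replicate 3 and DDC_STAT3KO replicate 3. Of all genes, 2.26% were called higher and 0.865% lower. The median of the members was -0.21, against 0.015 over all genes, and 27 of the members were on the lower side. Eci2 stood at -0.89 ± 0.40, Etfa at -0.65 ± 0.27, Fabp1 at -1.13 ± 0.61 and Crat at 1.41 ± 0.61 on the log2 scale.

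After the DDC diet 6 members were lower than with the GFP plasmid and 0 were higher. They were Fabp1 (-2.50 ± 0.72), Acsl1 (-2.38 ± 0.57), Slc27a2 (-1.97 ± 0.45), Etfa (-1.03 ± 0.31), Echs1 (-0.96 ± 0.26) and Decr2 (-0.87 ± 0.26), on the log2 scale with SE. Of all genes, 8.29% were called lower and 10.4% higher, and the members' median was -0.64 against 0.02. The count was 0 without DDC replicate 1, DDC replicate 2, GFP replicate 1 or GFP replicate 2, each of which leaves a group of 1 library. The log2 fold changes in those fits stayed below 0, at -2.73 to -2.29 for Fabp1, -2.55 to -2.22 for Acsl1, -2.06 to -1.90 for Slc27a2, -1.09 to -0.97 for Etfa, -1.11 to -0.81 for Echs1 and -1.02 to -0.74 for Decr2. The count was 24 with only these groups in the fit, 16 without both IL6 replicate 3 and DDC_STAT3KO replicate 3, and 12 with a replicate block. It was 10 without IL6 replicate 3 or without DDC_STAT3KO replicate 2, which are libraries of neither group. DESeq2 called 10 members and 3567 of all genes. The number of all genes called can move between fits too, and it is not reported here for the other fits. Cell markers differed between these groups too. Of 10 hepatocyte markers 5 were called lower. All 10 Kupffer cell and macrophage markers were called higher, with a summed level of 319.5 to 545 CPM in DDC and 35.1 to 45.1 CPM in GFP, and stellate cell markers (0 of 6 called) summed to 225 to 385 CPM in DDC and 74.1 to 83.9 CPM in GFP. Of the cholangiocyte markers 2 of the 3 tested were called higher, and the 4 in the table summed to 500.7 to 561.6 CPM in DDC and 8.88 to 15.4 CPM in GFP, where Krt7 and Epcam were at 0. The part of these shifts in the diet comparison was not tested.

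Between DDC_STAT3KO and DDC hepatocytes edgeR called 0 of the 38 members, with 0% of all genes called higher and 0% lower. No member had an unadjusted edgeR p under 0.05, compared with 803 of the 14339 genes tested, and DESeq2 called 10 genes and 0 members. The members' median log2 fold change was 0.16, the lowest was -2.03 (Acot3) and the highest 0.96 (Fgf21). The DDC_STAT3KO libraries differed widely among themselves, and 29 of 38 members were highest in replicate 3, where 36.1% of all genes were highest.

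**Figure D1:**
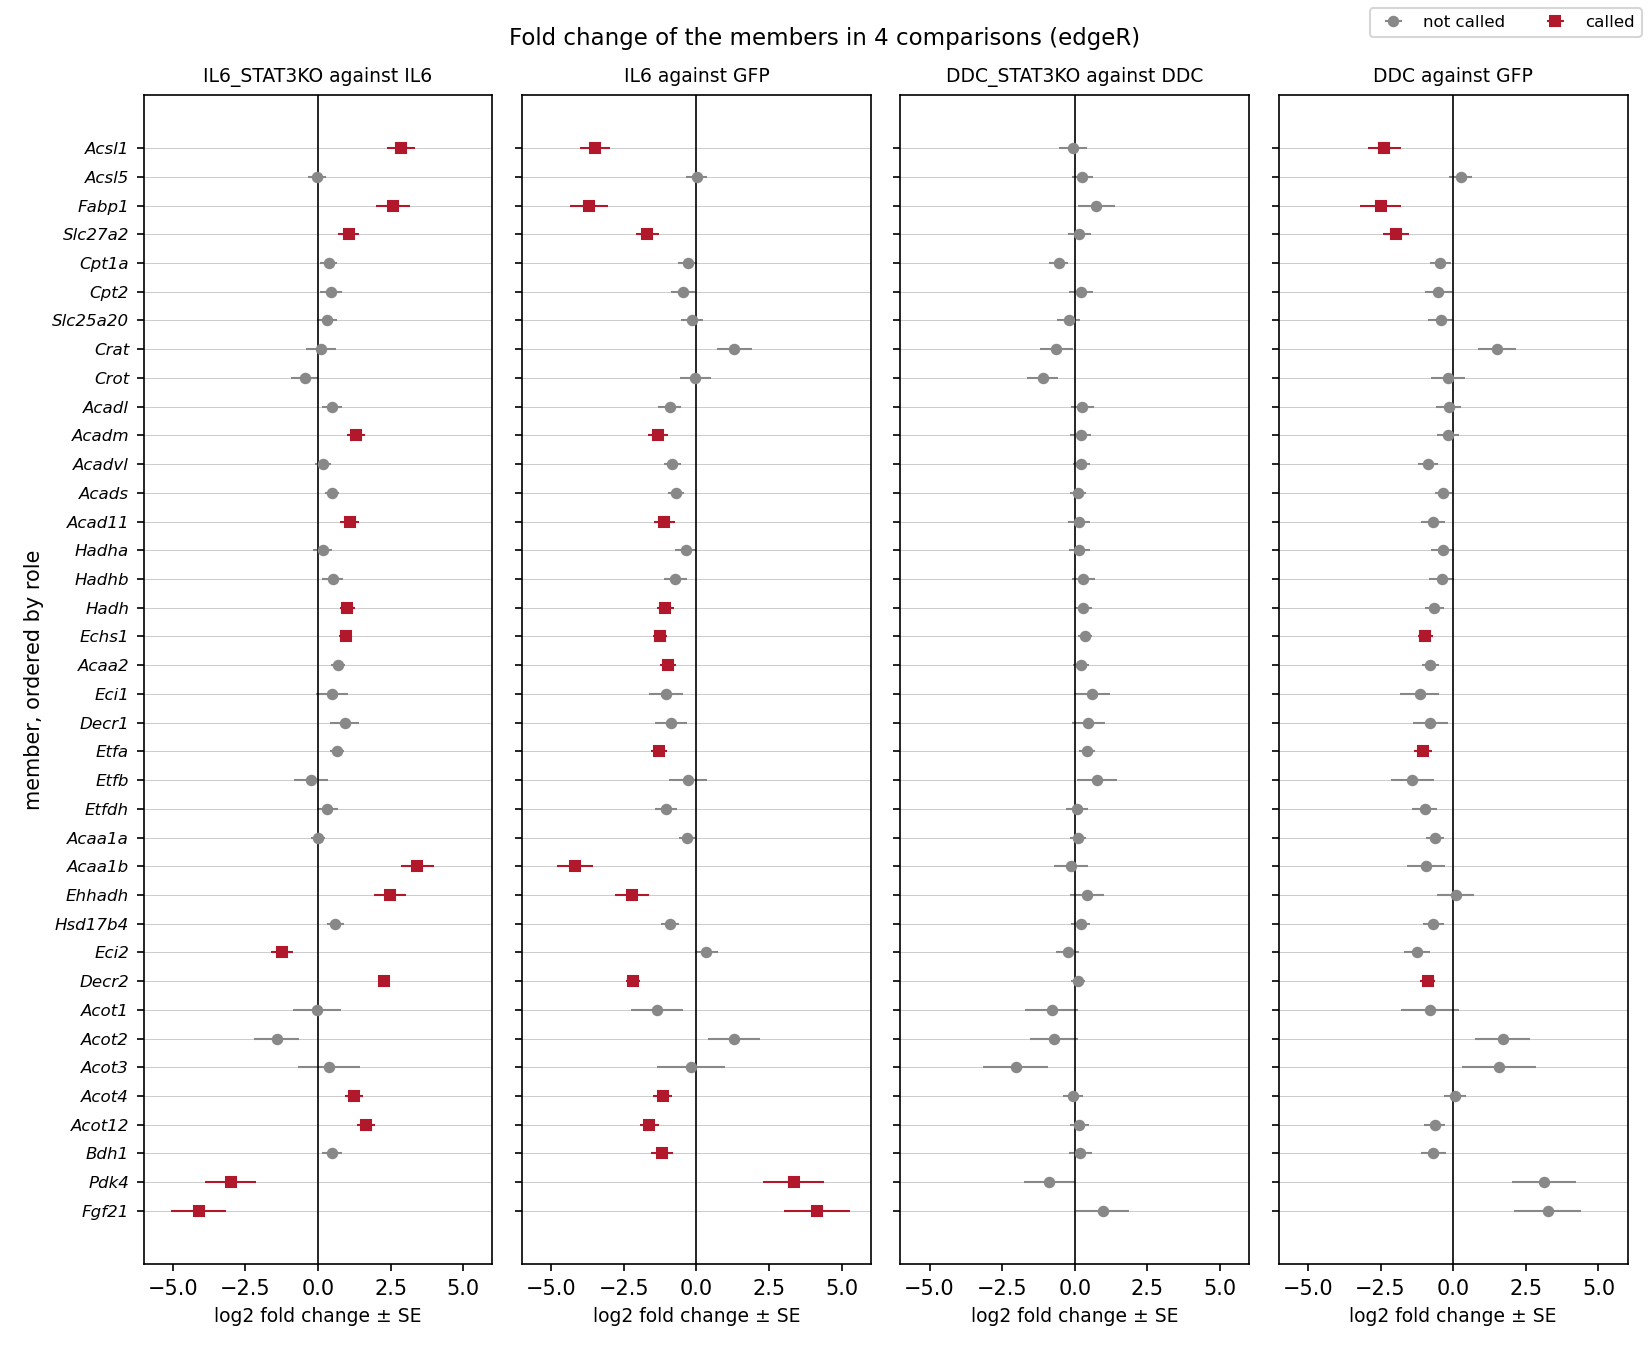
Log2 fold change ± SE of the 38 members (rows, ordered by role) in 4 comparisons (columns, log2 scale on the x axis), with members called at an adjusted p under 0.05 as red squares and the others as grey circles. In IL6_STAT3KO against IL6 the called members lie mostly right of 0 and in IL6 against GFP mostly left of it, with Fgf21 and Pdk4 on the opposite side in both, and DDC_STAT3KO against DDC has 0 called members.

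The STAT3KO effect was compared between the IL6 and DDC settings as IL6_STAT3KO minus IL6, less DDC_STAT3KO minus DDC. It was called higher for Decr2 (2.17 ± 0.31 SE, edgeR adjusted p = 0.00169), Acaa1b (3.56 ± 0.78 SE, edgeR adjusted p = 0.0169) and Acsl1 (2.92 ± 0.66 SE, edgeR adjusted p = 0.0189), and lower for Fgf21 (-5.07 ± 1.36 SE, edgeR adjusted p = 0.0403). Of all genes, 4.20% were called higher and 4.08% lower in this difference with all libraries, and the shares in other fits are not reported here. The count of 4 members became 9 without IL6 replicate 3, 8 without DDC_STAT3KO replicate 3, 2 without DDC replicate 1 and 1 without DDC replicate 2, and it was 10 with a replicate block and 23 without both IL6 replicate 3 and DDC_STAT3KO replicate 3. IL6_STAT3KO and IL6 also differ in genotype and in having an AAV, which DDC_STAT3KO and DDC do not. They differ in Il6 transcript as well, with fewer counts in each IL6_STAT3KO library than in any IL6 library. These differences cannot be told apart from STAT3 loss here. Fgf21 was no longer called under 14 of 19 alternatives, while Decr2 was called under all of them.

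Of the 4 fatty acid uptake and activation genes, 3 were lower in IL6 than in GFP, 3 were higher in IL6_STAT3KO than in IL6 and 3 were lower in DDC than in GFP. The shares of all genes called in the same directions were 12.2%, 13% and 8.29%. Whether the genes of a role were called more often than other genes was not tested. Acsl1, the main long-chain acyl-CoA synthetase of liver (chromosome 8, 46471037 to 46536051, forward strand, GRCm38), had 1162, 872 and 1020 CPM in IL6_STAT3KO hepatocytes, 97.3, 77.4 and 245 CPM in IL6 hepatocytes and 1757 and 1390 CPM in GFP hepatocytes. The IL6 libraries lay below all others of that set without overlap. Its log2 fold change was 2.86 ± 0.47 (SE, edgeR adjusted p = 0.000969) in IL6_STAT3KO against IL6 and -3.49 ± 0.51 (SE, edgeR adjusted p = 0.000539) in IL6 against GFP. In the diet groups Acsl1 had 168, 222 and 481 CPM in DDC_STAT3KO and 289.5 and 316 CPM in DDC hepatocytes. Both diet groups lay under the GFP libraries, and they overlapped each other (-2.38 ± 0.57 SE, edgeR adjusted p = 0.0156 for DDC against GFP and -0.06 ± 0.49 for DDC_STAT3KO against DDC). The relative Acsl5, a synthetase also found at mitochondria, was not called in any comparison and stood at 0.02 ± 0.36 in IL6 against GFP. Its exons overlap those of Zdhhc6 on the other strand by 404 bases, and the strand setting of the counting is not stated, so a part of its reads may belong to that gene.

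Fabp1, the liver fatty acid binding protein (chromosome 6, 71199827 to 71205023, forward strand), had 768, 1163 and 1509 CPM in IL6_STAT3KO hepatocytes, 136, 113 and 330.2 CPM in IL6 hepatocytes and 2762 and 2258 CPM in GFP hepatocytes. The IL6 libraries were again the lowest, and the IL6_STAT3KO libraries lay between them and GFP without overlap. The log2 fold change was 2.57 ± 0.59 (SE, edgeR adjusted p = 0.00721) in IL6_STAT3KO against IL6 and -3.70 ± 0.65 (SE, edgeR adjusted p = 0.00166) in IL6 against GFP. With the diet Fabp1 had 428, 305 and 1496 CPM in DDC_STAT3KO and 509.9 and 377 CPM in DDC hepatocytes. DDC_STAT3KO replicate 3 stood far above the other diet libraries and the rest were close to each other. DDC against GFP was -2.50 ± 0.72 (edgeR adjusted p = 0.0324), and DDC_STAT3KO against DDC was 0.74 ± 0.64 (adjusted p = 0.864). Per length Fabp1 had 2074 CPM per kilobase of exon in IL6_STAT3KO, 348.9 in IL6 and 4539 in GFP, where it had the highest level of the members. Slc27a2, a very-long-chain acyl-CoA synthetase and transporter, ranged from 547 to 1050 CPM in IL6_STAT3KO, from 261 to 585.5 CPM in IL6, from 224 to 456 CPM in DDC_STAT3KO, from 306 to 314 CPM in DDC and from 1145 to 1277 CPM in GFP. It was called in IL6 against GFP (-1.68 ± 0.39) and in DDC against GFP (-1.97 ± 0.45), with SE on the log2 scale.

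**Figure D2:**
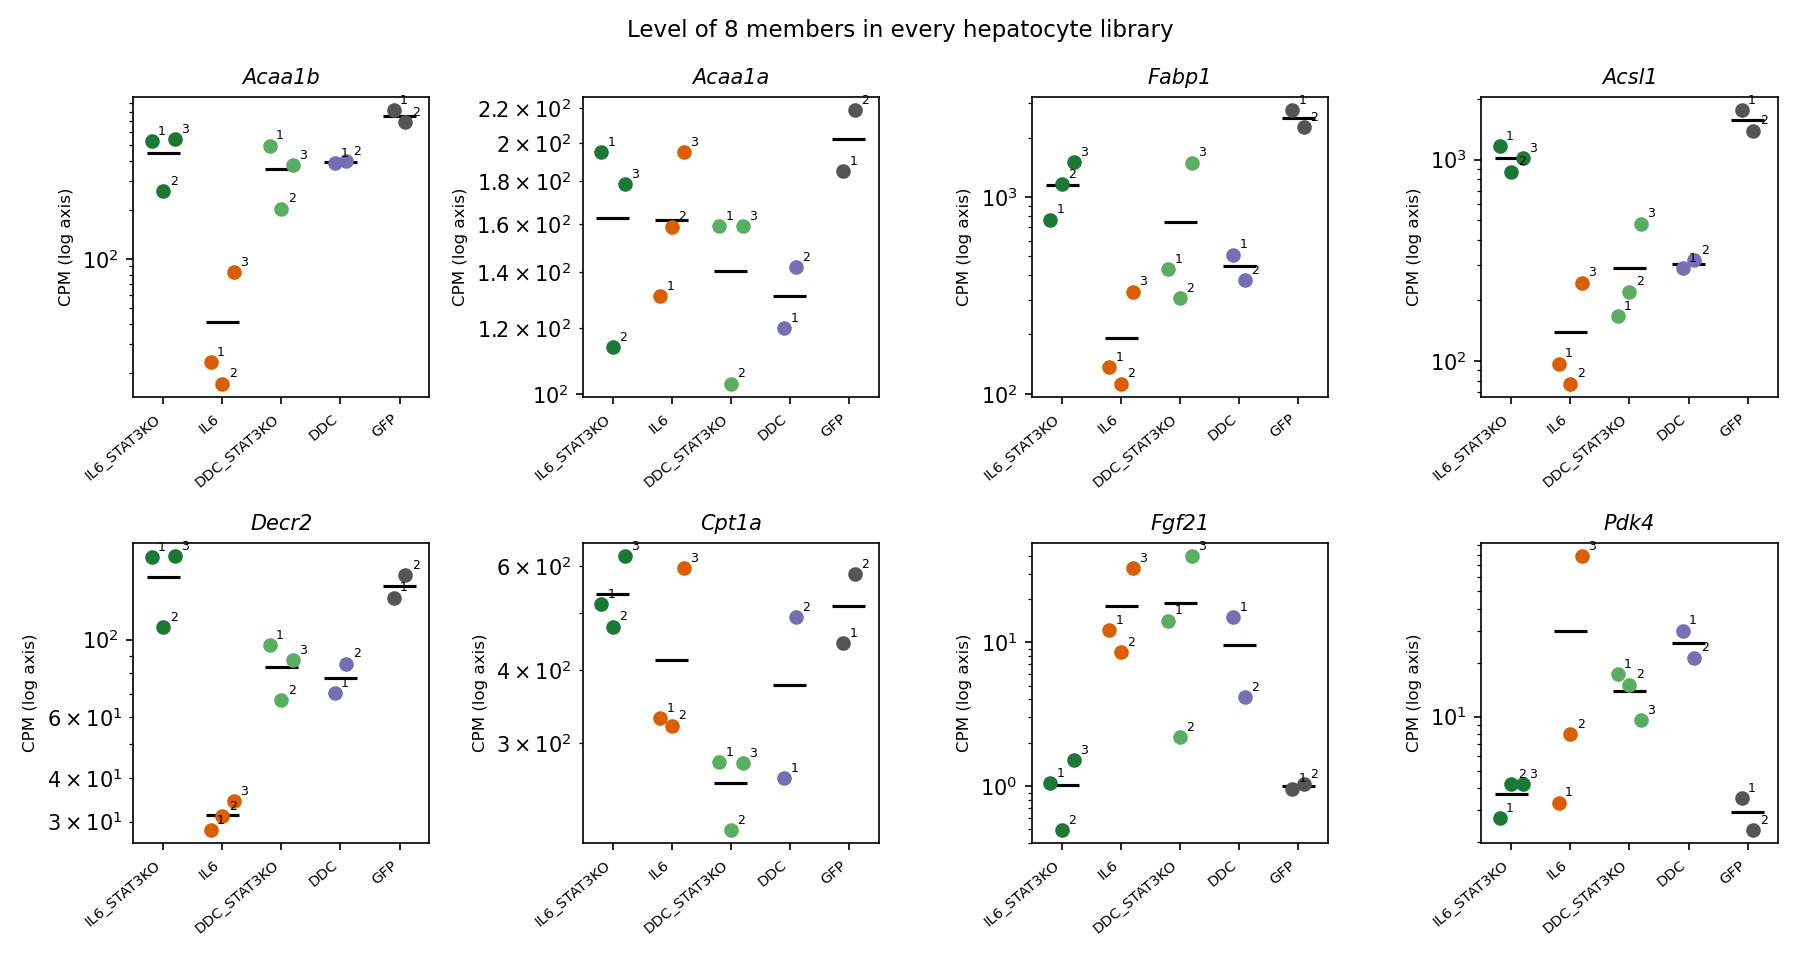
Level of 8 members in CPM on a log y axis in each of the 13 hepatocyte libraries, with groups along the x axis, points numbered by replicate and a bar at the group mean. The group means of Acaa1b, Fabp1, Acsl1 and Decr2 are lowest in IL6. Fabp1 and Acsl1 in IL6 replicate 3 (330 and 245 CPM) nevertheless exceed DDC_STAT3KO replicate 2 (305 and 222 CPM). Acaa1a and Cpt1a overlap across the IL6 and GFP groups, and Pdk4 is high in a single IL6 library at 78.1 CPM.

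The carnitine shuttle was the role in which no member was called in any comparison of the main fit. Cpt1a, the outer-membrane carnitine palmitoyltransferase that controls entry of long-chain acyl groups (chromosome 19, 3322334 to 3385733, forward strand), had 518, 474 and 623 CPM in IL6_STAT3KO hepatocytes, 331, 322 and 595 CPM in IL6 hepatocytes and 444 and 582 CPM in GFP hepatocytes. IL6 replicate 3 lay within the range of the other groups and the other IL6 libraries lay below it. Cpt1a stood at 0.37 ± 0.30 in IL6_STAT3KO against IL6 and at -0.30 ± 0.33 in IL6 against GFP, on the log2 scale with SE. With the diet it had 279, 214 and 278 CPM in DDC_STAT3KO and 262 and 491 CPM in DDC hepatocytes. DDC replicate 2 lay with the GFP libraries and the other diet libraries were lower. Crat, the carnitine acetyltransferase, had 14.1, 29.5 and 48.4 CPM in IL6_STAT3KO hepatocytes, 14.1, 14.7 and 56.0 CPM in IL6 hepatocytes and 11.5 and 11.5 CPM in GFP hepatocytes, and 21.4, 17.7 and 24.3 CPM in DDC_STAT3KO and 26.4 and 39.0 CPM in DDC hepatocytes. It was lower in both GFP libraries than in any other, and its log2 fold changes against GFP were 1.41 ± 0.61 for IL6_STAT3KO, 1.30 ± 0.60 for IL6 and 1.51 ± 0.65 for DDC, with edgeR adjusted p of 0.229, 0.134 and 0.118. The peroxisomal octanoyltransferase Crot, the inner-membrane transferase Cpt2 and the carrier Slc25a20 were each highest in IL6 replicate 3 among the IL6 libraries. Crot had 1118 CPM there, against 292 and 206 CPM in the other IL6 libraries.

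IL6 replicate 3 held the highest IL6 value for 33 of the 38 members, whereas 39.95% of all genes tested were highest there. Without it, 26 members were lower and 1 was higher in IL6 than in GFP, where 11.5% of 14230 genes were called lower and 12.7% higher, and 15 of the 27 were also called with it. IL6_STAT3KO against IL6 then had 19 higher and 1 lower, where 12.9% of genes were called higher and 12.2% lower. Cpt2 became lower in IL6 than in GFP (-1.13 ± 0.31, edgeR adjusted p = 0.023), as did Crot (-1.16 ± 0.25, 0.00692) and the trifunctional protein genes Hadha (-0.87 ± 0.28, 0.0418) and Hadhb (-1.20 ± 0.35, 0.029). Cpt1a stayed uncalled at -0.66 ± 0.30 (adjusted p = 0.137). Calls that ended without it were Pdk4 in both comparisons, Bdh1 in IL6 against GFP (-1.06 ± 0.42, 0.0936) and Eci2 in IL6_STAT3KO against IL6 (-0.77 ± 0.33, 0.111). The diet group has a like case in DDC_STAT3KO replicate 3, and other groups had such a library too. IL6_STAT3KO replicate 3 was highest for 26 members, where 29.3% of all genes were highest. DDC replicate 2 was highest for 32 members, where 51.6% of all genes were highest. Leaving out IL6 replicate 3 and DDC_STAT3KO replicate 3 together gave 28 called members in IL6 against GFP and 28 in IL6_STAT3KO against IL6. In DDC against GFP it gave 16. Both libraries left out hold high member values, so these counts are a description only. The reason for these libraries' values was not tested.

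**Figure D3:**
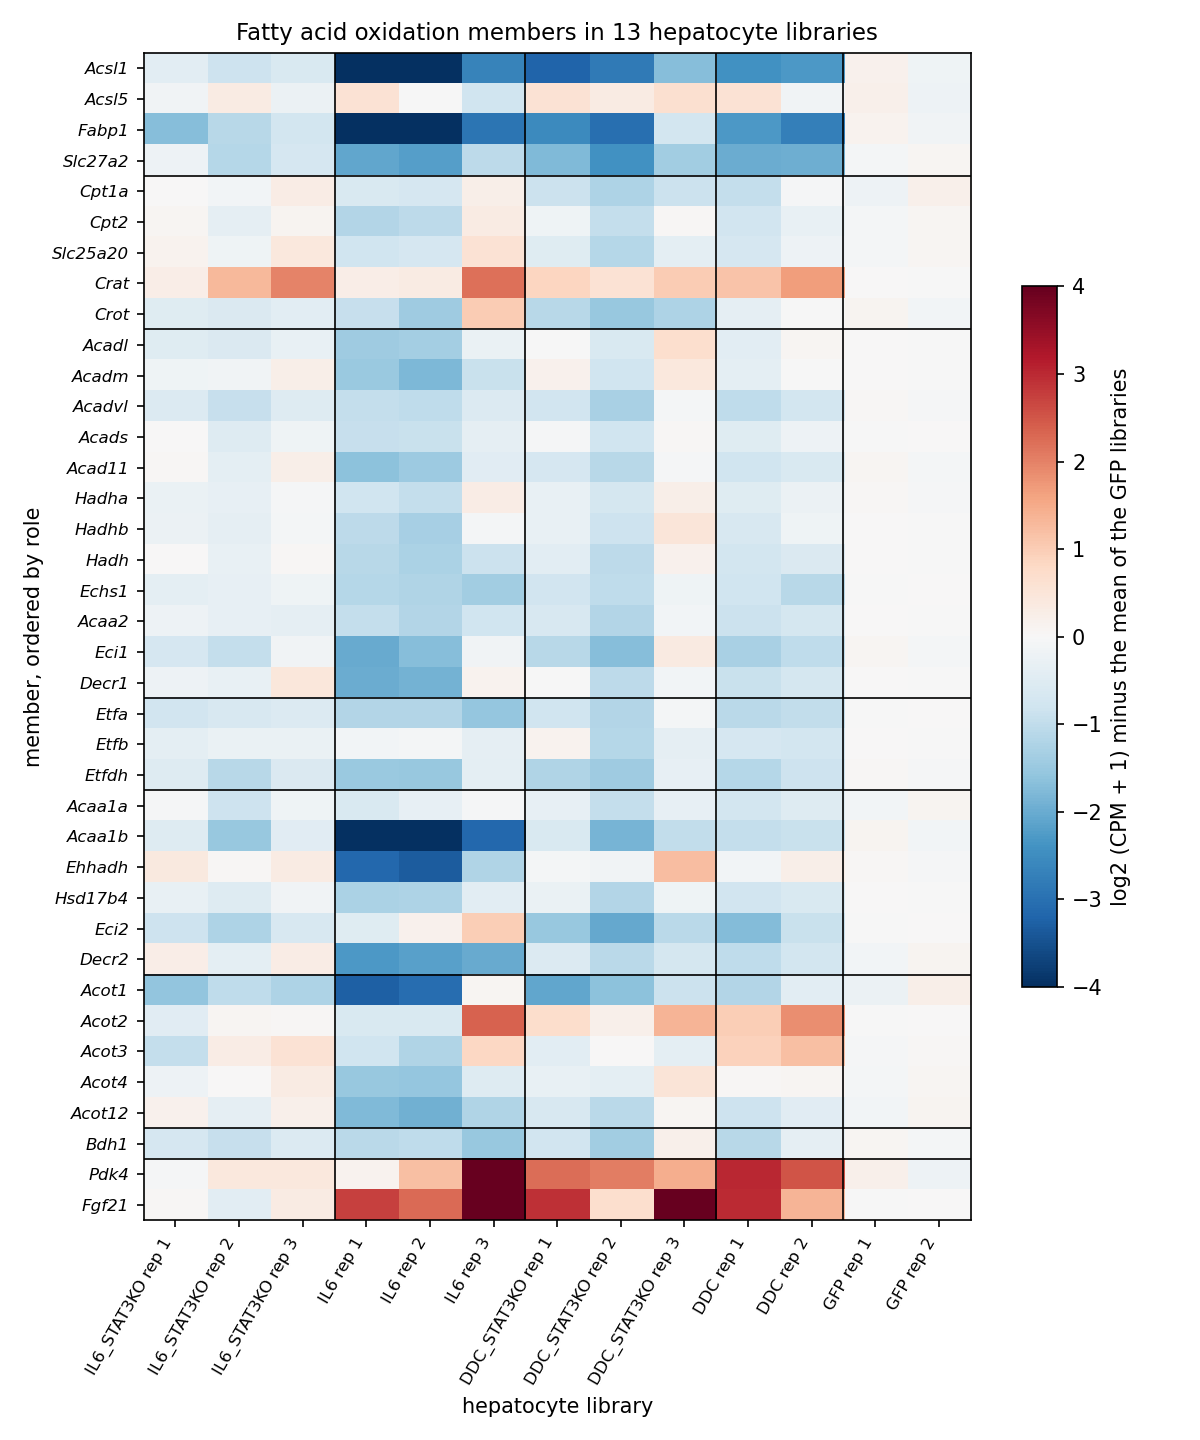
Heat map of the 38 members (rows, by role) in the 13 hepatocyte libraries (columns), colored by log2 of CPM plus 1 minus the mean of the GFP libraries, with colors saturating at 4 in either direction. IL6 replicates 1 and 2 are blue through most rows, and IL6 replicate 3 is paler or red in rows such as Crot (1118 CPM) and Acot2 (24.5 CPM).

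In the main fit, 5 of 12 genes of the mitochondrial beta-oxidation spiral were lower in IL6 than in GFP. Of the 12, 4 were higher in IL6_STAT3KO than in IL6 and 1 was lower in DDC than in GFP. Of all genes tested, 12.2% were called lower in IL6 than in GFP and 13% higher in IL6_STAT3KO than in IL6. In DDC against GFP 8.29% of all genes were called lower, so 1 of 12 there is near the share of all genes. Echs1, the short-chain enoyl-CoA hydratase (chromosome 7, 140105710 to 140116476, reverse strand), had 229.6, 237 and 267 CPM in IL6_STAT3KO hepatocytes, 135, 129.7 and 115 CPM in IL6 hepatocytes and 295 and 307 CPM in GFP hepatocytes. The 3 groups did not overlap, with IL6 lowest and GFP highest. It stood at 0.95 ± 0.21 (SE, edgeR adjusted p = 0.00631) in IL6_STAT3KO against IL6 and at -1.25 ± 0.23 (SE, edgeR adjusted p = 0.00238) in IL6 against GFP. With the diet Echs1 had 177, 148 and 266 CPM in DDC_STAT3KO and 171 and 139 CPM in DDC hepatocytes. Both DDC libraries were below both GFP libraries (-0.96 ± 0.26 SE, edgeR adjusted p = 0.0262). Echs1 exons overlap those of Paox on the opposite strand by 142 bases. Acadm, the medium-chain acyl-CoA dehydrogenase, had 409, 418 and 549.5 CPM in IL6_STAT3KO hepatocytes, 167, 134 and 253 CPM in IL6 hepatocytes and 474 and 458 CPM in GFP hepatocytes. The IL6 libraries lay below both other groups, which overlapped. The log2 fold change was 1.31 ± 0.32 (SE, edgeR adjusted p = 0.00964) in IL6_STAT3KO against IL6 and -1.34 ± 0.34 (SE, edgeR adjusted p = 0.0142) in IL6 against GFP. With the diet Acadm had 522, 268 and 620.1 CPM in DDC_STAT3KO and 355 and 465 CPM in DDC hepatocytes, and DDC against GFP was -0.18 ± 0.38 (adjusted p = 0.766).

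The other called genes of the mitochondrial spiral in IL6 against GFP were Acad11 (-1.10 ± 0.37), Hadh (-1.07 ± 0.29) and Acaa2 (-0.97 ± 0.27), on the log2 scale with SE. Hadh is the short-chain 3-hydroxyacyl-CoA dehydrogenase and Acaa2 the mitochondrial thiolase. Acad11 and Hadh were also called higher in IL6_STAT3KO than in IL6, by 1.09 ± 0.34 and 1.01 ± 0.26. The dehydrogenases Acadl, Acadvl and Acads, the trifunctional protein genes Hadha and Hadhb, the isomerase Eci1 and the reductase Decr1 were not called in IL6 against GFP in the main fit. Their log2 fold changes ran from -1.04 ± 0.60 for Eci1 to -0.37 ± 0.36 for Hadha. Without IL6 replicate 3 each of these genes was called lower, at edgeR adjusted p from 0.00274 for Decr1 to 0.0485 for Acadvl. In the main fit all 12 genes of the spiral were on the lower side in IL6 against GFP. All 12 were on the higher side in IL6_STAT3KO against IL6, where the range was 0.16 to 1.31. The lowest value in DDC against GFP was -1.15 ± 0.67 for Eci1 (adjusted p = 0.24).

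Electron transfer flavoprotein passes electrons from the acyl-CoA dehydrogenases to the respiratory chain. Etfa, its alpha subunit (chromosome 9, 55454508 to 55512243, reverse strand), had 255, 274 and 297 CPM in IL6_STAT3KO hepatocytes, 191, 189 and 148 CPM in IL6 hepatocytes and 428 and 434 CPM in GFP hepatocytes. GFP lay above both other groups and IL6 below both, with no overlap. On the log2 scale Etfa was lower in IL6 than in GFP (-1.29 ± 0.27, edgeR adjusted p = 0.00493) and lower in DDC than in GFP (-1.03 ± 0.31, 0.0361). With the diet it had 248, 191 and 409.6 CPM in DDC_STAT3KO and 202 and 219.5 CPM in DDC hepatocytes, where DDC_STAT3KO replicate 3 came close to GFP. Etfdh, the membrane dehydrogenase that accepts these electrons, had 222, 148 and 214 CPM in IL6_STAT3KO hepatocytes, 112, 109.7 and 243 CPM in IL6 hepatocytes and 328 and 309.9 CPM in GFP hepatocytes. Both GFP libraries were above every other library of that set, and the fold change in IL6 against GFP was -1.04 ± 0.38 (adjusted p = 0.0621). Without IL6 replicate 3 Etfdh was called lower there (-1.525 ± 0.34, edgeR adjusted p = 0.00842). With the diet it had 139, 119 and 252 CPM in DDC_STAT3KO and 145 and 177 CPM in DDC hepatocytes. Etfb, the beta subunit, had only 245 counts over all libraries. It shares 617 of 1164 exon bases with Gm45233 on the same strand, so its level is uncertain.

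Of the 6 peroxisomal beta-oxidation genes, 3 were lower in IL6 than in GFP, and in IL6_STAT3KO against IL6 3 were higher and 1 was lower. The shares of all genes called in the same directions were 12.2%, 13% and 13.4%. Decr2, a dienoyl-CoA reductase of peroxisomes (chromosome 17, 26081208 to 26090337, reverse strand), had 173, 109 and 174 CPM in IL6_STAT3KO hepatocytes, 28.4, 31.1 and 34.3 CPM in IL6 hepatocytes and 132 and 153 CPM in GFP hepatocytes. All 3 IL6 libraries lay together and far below the rest. Its log2 fold change was 2.28 ± 0.22 (SE, edgeR adjusted p = 2.7e-05) in IL6_STAT3KO against IL6 and -2.19 ± 0.23 (SE, edgeR adjusted p = 7.76e-05) in IL6 against GFP. With the diet Decr2 had 96.5, 67.0 and 87.3 CPM in DDC_STAT3KO and 70.2 and 85.4 CPM in DDC hepatocytes. Both DDC libraries were under GFP but above IL6, and DDC against GFP was -0.87 ± 0.26 (SE, edgeR adjusted p = 0.0355). Acaa1b, a peroxisomal thiolase (chromosome 9, 119148023 to 119157093, reverse strand), had 528, 260.2 and 540.2 CPM in IL6_STAT3KO hepatocytes, 23.4, 17.3 and 83.2 CPM in IL6 hepatocytes and 815 and 686 CPM in GFP hepatocytes. The IL6 libraries were far below both other groups, and the group means were 443 ± 158, 41.3 ± 36.4 and 751 ± 91.4 CPM in IL6_STAT3KO, IL6 and GFP (SD, n = 3, 3 and 2). The log2 fold change was 3.42 ± 0.57 (SE, edgeR adjusted p = 0.00105) in IL6_STAT3KO against IL6 and -4.18 ± 0.61 (SE, edgeR adjusted p = 0.000572) in IL6 against GFP. With the diet Acaa1b had 495, 203 and 375 CPM in DDC_STAT3KO and 387 and 399 CPM in DDC hepatocytes, and DDC against GFP was -0.93 ± 0.64 (adjusted p = 0.321).

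Acaa1a, the paralog of Acaa1b on the same chromosome (chromosome 9, 119339676 to 119350299, forward strand), had 195, 114 and 178 CPM in IL6_STAT3KO hepatocytes, 131, 159 and 195 CPM in IL6 hepatocytes and 185 and 219 CPM in GFP hepatocytes. The groups overlapped. It was not called in any comparison, at 0.01 ± 0.25 in IL6_STAT3KO against IL6 and -0.32 ± 0.27 in IL6 against GFP on the log2 scale, and with the diet it had 159, 103 and 159 CPM in DDC_STAT3KO and 120 and 142 CPM in DDC hepatocytes. The genes are close paralogs, so reads that fit both may have been dropped or split, and the difference between their fold changes was not tested. Ehhadh, the bifunctional enzyme of peroxisomes, ranged from 284 to 359.9 CPM in IL6_STAT3KO, 26.8 to 120.1 CPM in IL6, 252 to 653 CPM in DDC_STAT3KO, 258 to 327 CPM in DDC and 265.5 to 287.5 CPM in GFP. It was called in IL6_STAT3KO against IL6 (2.48 ± 0.55) and in IL6 against GFP (-2.23 ± 0.58), and stood at 0.08 ± 0.63 in DDC against GFP. Eci2, an isomerase for unsaturated acyl-CoA, was the 1 beta-oxidation gene lower in IL6_STAT3KO than in IL6 (-1.24 ± 0.36 SE, edgeR adjusted p = 0.0256), with 62.4 to 95.7 CPM in the IL6_STAT3KO libraries and 107 to 292 CPM in the IL6 libraries. Hsd17b4, the other multifunctional enzyme, was not called in the main fit and stood at -0.91 ± 0.32 in IL6 against GFP (adjusted p = 0.0527). Without IL6 replicate 3 Hsd17b4 was called lower there (-1.25 ± 0.30, edgeR adjusted p = 0.0127).

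Acyl-CoA thioesterases release the free acid from acyl-CoA. Acot12, an acetyl-CoA thioesterase of the cytosol (chromosome 13, 91741512 to 91786148, forward strand), had 138, 93.9 and 140.1 CPM in IL6_STAT3KO hepatocytes, 34.9, 31.3 and 52.5 CPM in IL6 hepatocytes and 114 and 130 CPM in GFP hepatocytes. The IL6 libraries lay below both other groups, which overlapped. It stood at 1.65 ± 0.30 (SE, edgeR adjusted p = 0.00202) in IL6_STAT3KO against IL6 and at -1.62 ± 0.33 (SE, edgeR adjusted p = 0.00376) in IL6 against GFP. With the diet Acot12 had 77.4, 56.8 and 128 CPM in DDC_STAT3KO and 67.4 and 89.0 CPM in DDC hepatocytes. Acot4, a peroxisomal succinyl-CoA thioesterase in mouse (chromosome 12, 84038379 to 84048601, forward strand), had 34.7, 40.1 and 49.99 CPM in IL6_STAT3KO hepatocytes, 13.1, 12.8 and 27.2 CPM in IL6 hepatocytes and 37.7 and 41.7 CPM in GFP hepatocytes. Again IL6 was lowest, with 1.23 ± 0.31 (SE, edgeR adjusted p = 0.0123) in IL6_STAT3KO against IL6 and -1.16 ± 0.34 (SE, edgeR adjusted p = 0.0249) in IL6 against GFP. With the diet Acot4 had 32.4, 29.7 and 56.6 CPM in DDC_STAT3KO and 40.6 and 42.0 CPM in DDC hepatocytes, on both sides of the GFP level.

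Acot1, Acot2 and Acot3 lie beside Acot4 on chromosome 12 and are close paralogs, so counts may be split among them, and none was called with all libraries. Acot1, the cytosolic form, had 5.45, 8.63 and 7.29 CPM in IL6_STAT3KO hepatocytes, 1.03, 1.36 and 19.3 CPM in IL6 hepatocytes and 15.6 and 21.6 CPM in GFP hepatocytes. IL6 replicate 3 lay with GFP and the other IL6 libraries were the lowest. Without that library Acot1 was called lower in IL6 than in GFP (-3.95 ± 0.52, edgeR adjusted p = 0.000459). With the diet it had 3.58, 5.18 and 9.73 CPM in DDC_STAT3KO and 7.63 and 13.6 CPM in DDC hepatocytes. Acot2, the mitochondrial form, had 2.60, 4.22 and 4.03 CPM in IL6_STAT3KO hepatocytes, 2.21, 2.22 and 24.5 CPM in IL6 hepatocytes and 3.90 and 3.92 CPM in GFP hepatocytes. The high value of IL6 replicate 3 set its direction, since IL6 against GFP was 1.30 ± 0.89 with that library and -0.82 ± 0.47 without it, and with the diet it had 6.97, 4.63 and 11.7 CPM in DDC_STAT3KO and 8.70 and 16.7 CPM in DDC hepatocytes. Acot3 had 0.186, 1.80 and 2.45 CPM in IL6_STAT3KO hepatocytes, 0.316, 0 and 3.06 CPM in IL6 hepatocytes and 1.22 and 1.38 CPM in GFP hepatocytes, and 0.727, 1.32 and 0.749 CPM in DDC_STAT3KO and 3.39 and 4.32 CPM in DDC hepatocytes. At 381 counts in all libraries together, Acot3 was sparse, and its values spread widely within groups.

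Bdh1, the mitochondrial enzyme that interconverts the ketone bodies acetoacetate and beta-hydroxybutyrate (chromosome 16, 31422280 to 31458901, forward strand), had 219, 183 and 238 CPM in IL6_STAT3KO hepatocytes, 165, 172 and 122 CPM in IL6 hepatocytes and 366 and 332 CPM in GFP hepatocytes. IL6 lay below both other groups without overlap, and GFP above. It was lower in IL6 than in GFP (-1.19 ± 0.38 SE, edgeR adjusted p = 0.0374), and that call ended when IL6 replicate 3, here the lowest, was left out. With the diet Bdh1 had 206, 133 and 404 CPM in DDC_STAT3KO and 161 and 273 CPM in DDC hepatocytes, and the DDC_STAT3KO libraries ran from below DDC to above GFP.

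The fasting signals went the other way in the IL6 groups. Fgf21, the hormone that liver secretes in fasting and stress (chromosome 7, 45613886 to 45615490, reverse strand), had 1.05, 0.497 and 1.52 CPM in IL6_STAT3KO hepatocytes, 12.2, 8.51 and 32.9 CPM in IL6 hepatocytes and 0.960 and 1.03 CPM in GFP hepatocytes. Every IL6 library was above every library of the other groups in that set. The log2 fold change was -4.11 ± 0.96 (SE, edgeR adjusted p = 0.00789) in IL6_STAT3KO against IL6 and 4.16 ± 1.15 (SE, edgeR adjusted p = 0.0196) in IL6 against GFP. With the diet Fgf21 had 14.1, 2.18 and 39.4 CPM in DDC_STAT3KO and 14.9 and 4.15 CPM in DDC hepatocytes. All diet libraries exceeded GFP, but they spread widely, and DDC against GFP was 3.25 ± 1.16 (adjusted p = 0.0687). Pdk4, the kinase that shuts off pyruvate dehydrogenase when fat is burned (chromosome 6, 5483351 to 5496309, reverse strand), had 2.72, 4.22 and 4.20 CPM in IL6_STAT3KO hepatocytes, 3.32, 8.01 and 78.1 CPM in IL6 hepatocytes and 3.52 and 2.34 CPM in GFP hepatocytes. Replicate 3 carried most of the IL6 signal, and IL6 replicate 1 lay at the level of the controls. Pdk4 was called higher in IL6 than in GFP (3.34 ± 1.06 SE, edgeR adjusted p = 0.0358) and lower in IL6_STAT3KO than in IL6 (-3.00 ± 0.87 SE, edgeR adjusted p = 0.0241), but stood at 0.95 ± 0.45 (adjusted p = 0.147) and -0.61 ± 0.40 (0.3) without that library. A replicate block also ended both Pdk4 calls, at 2.21 (adjusted p = 0.151) and -2.30 (0.0802). With the diet Pdk4 had 17.2, 15.1 and 9.58 CPM in DDC_STAT3KO and 30.1 and 21.3 CPM in DDC hepatocytes, above both GFP libraries, and DDC against GFP was 3.13 ± 1.09 (adjusted p = 0.0632).

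The members were also summed by compartment. The mitochondrial arm (20 genes) reached 4639, 4108 and 5156 CPM in IL6_STAT3KO, 2589, 2457 and 4127 CPM in IL6, 3943, 2652 and 5651 CPM in DDC_STAT3KO, 3203 and 4075 CPM in DDC and 5563 and 5560 CPM in GFP. IL6 replicates 1 and 2 were the lowest, and DDC_STAT3KO replicate 3 was the single library above GFP. The peroxisomal arm (9 genes) reached 2196, 1617 and 2281 CPM in IL6_STAT3KO, 847, 849.5 and 2274 CPM in IL6, 1790, 1122 and 2109 CPM in DDC_STAT3KO, 1669 and 1984 CPM in DDC and 2739 and 2561 CPM in GFP. Here IL6 replicate 3 lay with the IL6_STAT3KO libraries, and all others stayed under GFP. The single gene Crot made up 1118 of the 2274 CPM of IL6 replicate 3. It had 292 and 206 CPM in the other IL6 libraries and 392, 374 and 411 CPM in IL6_STAT3KO. The place of IL6 replicate 3 in this arm therefore rests largely on Crot. The log2 ratio of group means in IL6 against GFP was -0.86 for the mitochondrial and -1.0 for the peroxisomal arm, and -1.64 for the peroxisomal arm without IL6 replicate 3. Between IL6_STAT3KO and IL6 it was 0.60 and 0.62, and 1.26 for the peroxisomal arm without that library. IL6 replicate 3 was also the highest IL6 library of the mitochondrial arm (4127 against 2589 and 2457 CPM). The mitochondrial ratios depend on it too, and their values without it are not reported here. For DDC against GFP it was -0.61 and -0.54, and for DDC_STAT3KO against DDC 0.17 and -0.13. The DDC_STAT3KO against DDC ratios had no stable direction, at -0.14 to 0.40 and -0.33 to 0.09 when 1 library was left out, and the mitochondrial ratio was below 0 without DDC_STAT3KO replicate 3. The sums weight the abundant genes (Acaa2 in the mitochondrial arm, Acaa1b, Crot and Hsd17b4 in the peroxisomal one) and were not tested.

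**Figure D4:**
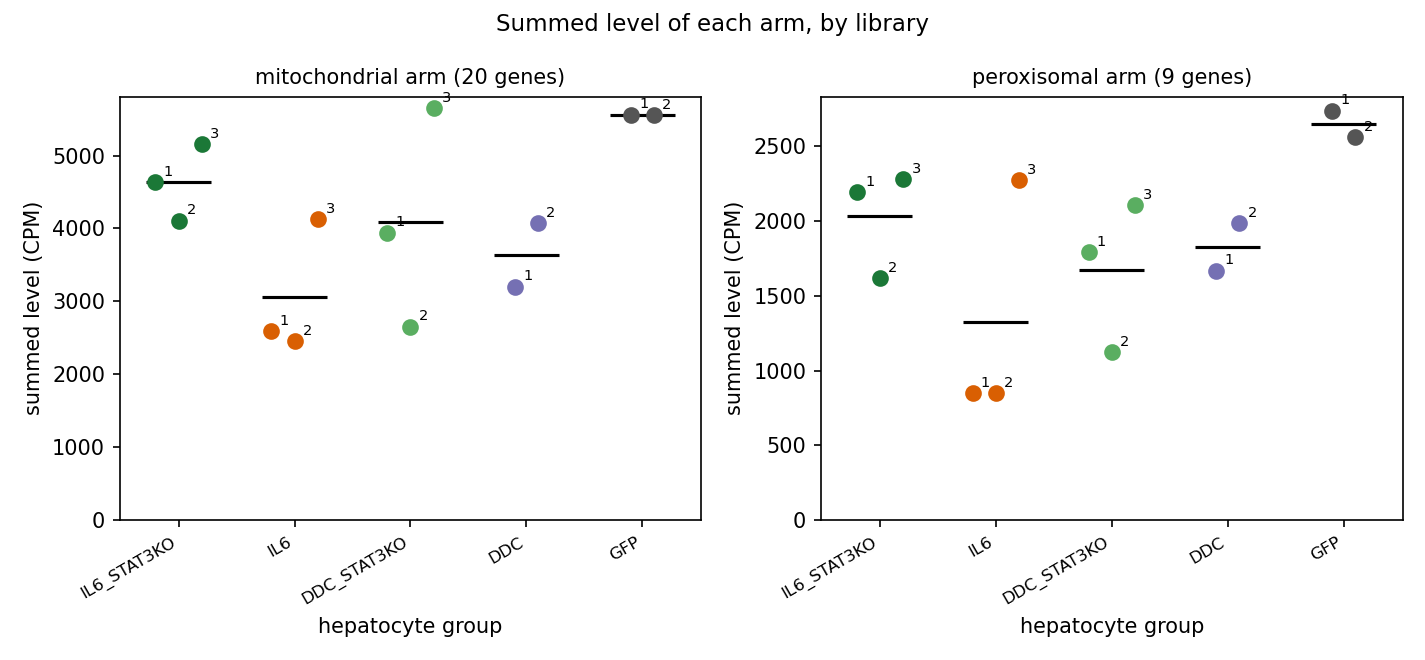
Summed CPM (y axis) of the mitochondrial arm (20 genes) and the peroxisomal arm (9 genes) in each hepatocyte library, by group along the x axis, with points numbered by replicate and a bar at the group mean. IL6 replicates 1 and 2 are lowest in both arms, at 2589 and 2457 CPM and at 847 and 849.5 CPM, and IL6 replicate 3 is apart from them.

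Genes of the same pathways outside the 38 members were counted by list with the same edgeR fit, and the values beside their names are log2 fold changes of called genes. Of 14 other mitochondrial acyl-CoA genes, 13 were tested, and 8 were lower and 1 higher in IL6 than in GFP, with a median log2 fold change of -1.37 against 0.05 over all genes. The lower ones were Acsm5 (-3.34), Acad10 (-2.50), Acad12 (-2.39), Acadsb (-2.17), Acsm3 (-1.60), Acot13 (-1.58), Acsm1 (-1.37) and Mcee (-1.25), and the higher one was Acot9 (1.53). Higher in IL6_STAT3KO than in IL6 were 8, Acsm5 (3.30), Acad10 (2.85), Acad12 (2.56), Acadsb (1.86), Acacb (1.86), Acsm1 (1.25), Mcee (1.04) and Acot13 (0.97). Acsm5 and Acsm1 are medium-chain acyl-CoA synthetases, and Acadsb is the short/branched-chain acyl-CoA dehydrogenase. In DDC against GFP 5 were lower, Acsm3 (-1.65), Acadsb (-1.46), Mcee (-1.25), Acsm1 (-1.08) and Mlycd (-0.83), and Acot9 (3.40) was higher.

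Of 14 other peroxisomal genes, 7 were lower in IL6 than in GFP, Phyh (-2.28), Nudt7 (-1.43), Scp2 (-1.35), Pex11a (-1.30), Abcd3 (-1.17), Acox3 (-0.74) and Amacr (-0.72), and 0 were higher. The median of the 14 was -0.73 there, against 0.05 over all genes, of which 12.2% were called lower. Phyh starts alpha-oxidation of phytanic acid, Abcd3 carries acyl groups into peroxisomes and Scp2 is a sterol carrier with thiolase activity. Those higher in IL6_STAT3KO than in IL6 included Abcd2 (2.29), Phyh (1.85), Abcd3 (1.31), Pex11a (1.29), Scp2 (0.91), Acox3 (0.83), Amacr (0.83) and Nudt7 (0.78). In DDC against GFP 3 were lower, Nudt7 (-2.91), Scp2 (-1.55) and Amacr (-0.72), and 2 were higher, Abcd2 (2.69) and Nudt19 (0.75).

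Among other ketogenesis and ketone transport genes, Bdh2 (-2.04) was lower in IL6 than in GFP, and the monocarboxylate transporters Slc16a6 (2.92) and Slc16a1 (1.78) were higher. These genes were also called in IL6_STAT3KO against IL6, higher for Bdh2 (2.17) and lower for Slc16a6 (-2.51) and Slc16a1 (-1.83), and Bdh2 was lower in DDC than in GFP (-1.54). Of 9 regulators, 5 were lower in IL6 than in GFP, Lpin1 (-4.48), Nr1d1 (-1.93), Sirt3 (-1.84), Ppara (-1.78) and Ppargc1a (-1.47). The median of the 9 was -1.47 there, against 0.05 over all genes, of which 12.2% were called lower. Ppara encodes PPAR-alpha, Ppargc1a its coactivator and Sirt3 the mitochondrial deacetylase. In IL6_STAT3KO against IL6 4 were higher, Lpin1 (2.47), Ppargc1a (1.53), Ppara (1.47) and Sirt3 (1.31). Nr1d1 was the regulator called in IL6_STAT3KO against GFP (-2.19), and Sirt3 the one called in DDC against GFP (-1.83). Lpin1 had 190 and 1557 CPM in the GFP libraries, so its level differed widely between the control libraries.

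Among 6 genes of the Cyp4a omega-oxidation family, Cyp4a12a was lower in IL6 than in GFP (-3.17) and higher in IL6_STAT3KO than in IL6 (3.52), and the others were not called. Cyp4a14 had 71.3, 141 and 2528 CPM in DDC_STAT3KO and 284 and 295.5 CPM in DDC, so the high value was that of replicate 3. Of 9 further PPAR-alpha targets, Cd36 (3.11) and Ucp2 (4.37) were higher and the lipase Mgll (-2.77) lower in IL6 than in GFP. The median of the 9 was -0.25 there, against 0.05 over all genes. With 12.2% of all genes called lower and 13.7% higher, the 1 lower target is near the share of all genes. In IL6_STAT3KO against IL6 Mgll (2.69) and Pnpla2 (0.64) were higher and Ucp2 (-2.82) lower. Cd36 was higher than in GFP in IL6_STAT3KO (3.23) and in DDC (3.11), as was Ucp2 in DDC (2.79). Cd36 and Ucp2 are also expressed by macrophages, whose summed markers were at 134 to 328 CPM in IL6_STAT3KO, 93.3 to 201 CPM in IL6, 319.5 to 545 CPM in DDC and 35.1 to 45.1 CPM in GFP, and the part of other cells was not tested.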

How the data were processed

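The authors deposited raw read counts per gene, 1 table for 13 hepatocyte and 1 for 12 immune cell libraries. The submitters' processing notes name STAR, HTSeq, DESeq2 and mm10, with no versions. Per the labels, hepatocytes and immune cells were sorted after perfusion, and a TruSeq kit was used. Strand use in counting is not stated. Genes were named with GENCODE M21, and EGFP was left out of library sizes and tests. edgeR 4.0.16 (R 4.3.3) was fitted once over the 13 hepatocyte libraries (13.6 to 18.4 x 1e6 counts) with TMM scaling, filterByExpr and 1 term per group, for 14339 genes. The SE is the absolute log2 fold change over the square root of F. CPM used TMM-scaled totals, except for EGFP and the immune cell libraries, where raw library totals were used. Code was tested on simulated data. Library values are given for the 2 members of each role with the smallest adjusted p and for Cpt1a, Acaa1a, Acaa1b, Fabp1, Bdh1, Pdk4, Fgf21 and Acot1 to Acot4. Called genes of other lists are named, except for a few not reported here, and Lpin1 and Cyp4a14 levels were chosen after their values were seen. Members and lists were chosen with earlier results of these data known. Alternatives were median-of-ratios scaling, no filter, a replicate block, only the compared groups, DESeq2 1.42.0, a size rule of 1 on the log2 scale, and single libraries left out.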

Additional observations from a re-analysis of the deposited data

Results flagged for a closer look

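The difference between the STAT3KO effects in the IL6 and DDC settings passed its own test for 4 of the 38 members. The test was by edgeR, adjusted over 14339 genes. Of all genes tested, 4.20% were called higher and 4.08% lower in the same contrast. Whether members were called more often than other genes was not tested. The difference, IL6_STAT3KO minus IL6 less DDC_STAT3KO minus DDC, was 3.56 on the log2 scale for the thiolase Acaa1b, 2.92 for the acyl-CoA synthetase Acsl1, 2.17 for the reductase Decr2 and -5.07 for the hormone Fgf21. Of 19 alternatives, 0 ended the call of Decr2, 1 that of Acaa1b, 2 that of Acsl1 and 14 that of Fgf21. IL6 mice were wild type without AAV while DDC mice were Stat3_floxed with AAV-TBG-GFP, so genotype and AAV cannot be told apart from STAT3 loss in this difference. Nor can the Il6 transcript, at 12, 9 and 18 counts in IL6_STAT3KO and 62, 52 and 5624 counts in IL6.

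In data outside the tests, EGFP transcript reached 424 CPM in IL6 replicate 3, whose label names no GFP vector, against 7.08 and 5.06 CPM in the other IL6 libraries and 2.12 and 2.38 CPM in the GFP libraries. In the immune cell table, Fabp1 reached 2422 CPM in T cell replicate 1 after the DDC diet.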

How the results depend on the processing

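The count of called members in IL6 against GFP was 17 and ranged from 7 to 27 over the fits that left out 1 library. It was 28 without IL6 replicate 3 and DDC_STAT3KO replicate 3 together and 25 with a replicate block. In IL6_STAT3KO against IL6 it was 15, 10 to 20 when 1 library was left out, 16 with a replicate block and 28 without both libraries. In IL6_STAT3KO against GFP it was 0 in every fit that left out 1 library, 1 with a replicate block, 2 with only these groups in the fit and 3 without both libraries. In DDC against GFP it was 6, with 0 to 10 when 1 library was left out, 12 with a replicate block, 24 with only these groups, 10 by DESeq2 and 16 without both libraries. It was 0 in DDC_STAT3KO against DDC under all alternatives. The difference of the STAT3 effects had 4 members, 1 to 9 when 1 library was left out, 10 with a replicate block and 23 without both libraries, and the cause of these changes was not tested. Where a group was left with 1 library, that library is assumed to vary like the others. The number of all genes called can move between fits too, and these member counts are given without it. Of 42 member calls, 17 held under each of 19 alternatives (a rule on size was applied to the counts only, not to these), 0 changed direction, and median-of-ratios scaling and DESeq2 kept all 42. Libraries were not treated as paired by replicate number, except in the replicate block. A correlation of deviations over 0.1 was seen in 4 of 23 same-number pairs (range -0.16 to 0.32) and 6 of 44 other pairs (-0.35 to 0.32). The medians were 0.04 and -0.03, and not every library correlated best with its own number. In groups of 2 libraries the deviations mirror each other, so this check cannot exclude pairing. On raw library totals the log2 ratio of arm means in DDC against GFP was -0.36 (mitochondrial) and -0.29 (peroxisomal). Etfb and Acot3 had few counts, 245 and 381 in all.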

Other observations

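In the immune cell libraries (all from wild-type mice, on DDC diet except for 1 of the 2 macrophage groups), whose totals were 3.82 to 12.9 x 1e6 counts, Fabp1 ranged from 2.52 to 2422 CPM with a median of 124, whereas Slc27a2 ranged from 0 to 6.73 CPM and Fgf21 from 0 to 2.24 CPM. Acaa1b ranged from 1.74 to 40.9 CPM with a median of 10.5 and Acaa1a from 46.9 to 217 CPM with a median of 153. Acot2 ranged from 4.71 to 152 CPM in the immune libraries.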
